A study of Mus musculus with 9 samples.

Results

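The constitutive proteasome genes were taken as every probe set of the array that the platform annotation gives a single gene symbol starting with Psma, Psmb, Psmc or Psmd and a number. Psmb8, Psmb9 and Psmb10, the inducible catalytic subunits, were left out of the set and are described beside it. The rule gave 37 of the 18193 genes on the array and 76 of its 45037 probe sets, and each gene was read from its probe set of highest mean signal. By role these were 7 alpha-ring subunits (Psma1 to Psma7), 7 beta-ring subunits (Psmb1 to Psmb7), 6 ATPases (Psmc1 to Psmc6) and 11 non-ATPase subunits of the regulatory particle (Psmd1, Psmd2, Psmd3, Psmd4, Psmd6, Psmd7, Psmd8, Psmd11, Psmd12, Psmd13 and Psmd14). The symbol rule also took in 3 chaperones of base assembly (Psmd5, Psmd9 and Psmd10), 2 tissue-restricted subunits (Psma8 of the testis and Psmb11 of the thymus) and Psmc3ip, a partner of recombinases in meiosis that is no proteasome subunit. In all 35 of the 37 had a mean signal of at least 100 over the 9 arrays and were tested; Psma8, with a mean of 4.95, and Psmb11, with 19.8, were not.

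The samples were 9 RNA preparations from mouse embryonic fibroblasts from E13.5 embryos, each hybridised to an array. Of these, 3 came from a spontaneously immortalised Suv420h1-/- line, which lacks a histone H4 methyltransferase (current symbol Kmt5b). This line was reconstituted with a Suv420h1-GFP fusion (1 array), or left as the null, either untransduced or expressing GFP (2 arrays). The other 6 came from a spontaneously immortalised wild-type line transduced with lentivirus. It expressed PREX2, an exchange factor for the small GTPase Rac, cut short by a stop codon (K278*, E824* and Q1430*, 3 arrays), full-length PREX2 (1 array), or a control vector carrying GFP or LacZ (2 arrays). Within a line no construct was measured more than once (GFP was measured in both), the labels do not state that preparations were grown separately, and each genotype was a single line. P-values therefore describe the scatter between these arrays, genotype and line cannot be told apart, and with so few arrays each value has limited precision.

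The proteasome degrades proteins tagged with ubiquitin. Its core particle is a barrel of stacked alpha and beta rings, in which Psmb6, Psmb7 and Psmb5 carry the caspase-like, trypsin-like and chymotrypsin-like sites. The regulatory particle caps the barrel: its ATPase ring unfolds the substrate, Psmd2 and Psmd4 take part in recognising ubiquitin and its carriers, and Psmd14 removes the ubiquitin chain. Subunits are assembled in fixed proportion. In mammalian cells the transcription factor Nfe2l1 raises many of these genes together when proteasome activity is short, acting through antioxidant-response-type sequences, and the CCAAT-binding factor NF-Y has also been described at their promoters.

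Promoters are shown for the genes on which the comparisons turned (Psma6, Psmd8, Psmd13, Psmd10 and Psmd9) and for the catalytic subunits Psmb5 and Psmb6. They are the 250 bases before the RefSeq start on GRCm38.p6, written 5′ to 3′ on the strand of the gene. Capitals mark matches, on either strand, to TGACNNNGC, the core letters of the antioxidant-response type, or to CCAAT, which reads ATTGG on the other strand; no match of one overlapped a match of the other in the promoters shown.
Psma6, upstream start, chr12:55383972-55384221, plus strand: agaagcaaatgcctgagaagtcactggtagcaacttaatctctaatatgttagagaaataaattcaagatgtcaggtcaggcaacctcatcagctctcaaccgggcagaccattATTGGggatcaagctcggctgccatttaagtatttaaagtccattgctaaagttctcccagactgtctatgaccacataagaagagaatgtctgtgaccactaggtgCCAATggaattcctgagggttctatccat
Psma6, downstream start, chr12:55398575-55398824, plus strand: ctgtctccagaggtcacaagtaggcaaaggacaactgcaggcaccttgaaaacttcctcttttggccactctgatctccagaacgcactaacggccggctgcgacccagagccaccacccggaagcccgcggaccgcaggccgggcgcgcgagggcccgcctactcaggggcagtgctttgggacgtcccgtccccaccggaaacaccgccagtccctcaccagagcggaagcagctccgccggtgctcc
Psmd8, chr7:29180674-29180923, minus strand: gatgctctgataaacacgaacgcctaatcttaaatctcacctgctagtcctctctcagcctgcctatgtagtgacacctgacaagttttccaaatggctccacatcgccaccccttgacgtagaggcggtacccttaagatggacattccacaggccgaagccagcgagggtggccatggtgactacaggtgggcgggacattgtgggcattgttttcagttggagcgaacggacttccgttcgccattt
Psmd13, chr7:140882144-140882393, plus strand: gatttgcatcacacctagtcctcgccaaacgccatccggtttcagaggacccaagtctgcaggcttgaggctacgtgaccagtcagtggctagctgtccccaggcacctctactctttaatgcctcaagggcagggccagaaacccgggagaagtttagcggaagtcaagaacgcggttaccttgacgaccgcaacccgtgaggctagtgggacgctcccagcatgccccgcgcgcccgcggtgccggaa
Psmd10, chrX:140956712-140956961, minus strand: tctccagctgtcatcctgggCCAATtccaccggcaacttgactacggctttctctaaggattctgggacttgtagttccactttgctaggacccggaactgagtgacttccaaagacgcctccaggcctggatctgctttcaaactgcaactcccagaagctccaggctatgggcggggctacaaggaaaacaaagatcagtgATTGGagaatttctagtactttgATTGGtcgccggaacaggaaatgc
Psmd9, chr5:123227940-123228189, plus strand: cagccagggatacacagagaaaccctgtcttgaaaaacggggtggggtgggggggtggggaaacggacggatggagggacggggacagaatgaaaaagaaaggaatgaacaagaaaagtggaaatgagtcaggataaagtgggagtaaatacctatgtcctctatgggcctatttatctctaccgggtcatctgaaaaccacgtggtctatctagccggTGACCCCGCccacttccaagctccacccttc
Psmb5, chr14:54617996-54618245, minus strand: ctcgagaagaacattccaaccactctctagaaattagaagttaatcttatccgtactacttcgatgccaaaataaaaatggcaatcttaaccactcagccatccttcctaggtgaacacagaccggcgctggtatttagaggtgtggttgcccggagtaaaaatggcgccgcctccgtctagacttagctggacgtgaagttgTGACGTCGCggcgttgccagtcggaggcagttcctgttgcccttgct
Psmb6, chr11:70525107-70525356, plus strand: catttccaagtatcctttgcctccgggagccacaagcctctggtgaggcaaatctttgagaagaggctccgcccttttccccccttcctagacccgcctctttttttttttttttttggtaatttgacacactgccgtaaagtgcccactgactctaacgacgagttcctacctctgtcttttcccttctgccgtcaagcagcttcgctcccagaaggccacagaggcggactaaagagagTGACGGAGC

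RefSeq promoters were matched for 30 of the 37 genes, 32 sequences in all, and the genes without an entry were Psma8, Psmb1, Psmb2, Psmb7, Psmc3, Psmd3 and Psmd7. TGACNNNGC occurred in 5 of the 32 (15.6%), against 10.2% of all 32851 promoters of the same length. Its match lay 9 bases before the start in Psmb6, 31 in Psmd9, 47 in Psmb5, 227 in Psmc6 and 247 in Psmd12. CCAAT occurred in 13 of the 32 (40.6%), against 33.8% of all promoters. Psmd10 held 3 CCAAT matches, at 230, 47 and 24 bases before the start, and the upstream start of Psma6 held 2, at 136 and 29 bases. Neither motif was in these windows of Psmd8, Psmd13 or the downstream start of Psma6. These are matches of letters, not measured binding.

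Every array had a trimmed mean of 500 (2% taken off at either end), and the median signal lay between 56.4 and 68.9. Of 5 Kmt5b probe sets, 4 were tested, and the stretch of transcript under each is not stated in the sources used. A probe set with low signal, chosen here with its values known, gave 150 on the reconstituted array, 8.85 and 17.3 on the null arrays and 118 to 182 on the wild-type-line arrays. Another passed in the opposite direction, with 536 and 462 in null cells, against 221 and 338 in control-vector cells (log2 0.81, adjusted p = 0.0398). The brightest read 328 on the reconstituted array, 432 to 442 on the null arrays and 295 to 469.6 on the wild-type-line arrays. All 17 fibroblast markers were tested, and their summed signal was 211539 to 232868 in the null line and 213547 to 300242 in the wild-type line. Of these, 5 fell in the null line, where 21.3% of all tested probe sets fell. They included Thy1, a surface protein of fibroblasts, with 15.2 in the null line and 2873 in the wild-type line. Summed markers of other cell types were 929 to 1292 in the null line and 706 to 1711 in the wild-type line for macrophages, 763 to 878 and 385 to 724 for endothelium, 249 to 417 and 1133 to 2230 for neurons, 10317 to 13514 and 2745 to 11112 for adipocytes, and 186 to 293 and 238 to 386 for muscle. Epithelial markers summed to 2504 to 3313 in the null line and 625.1 to 716 in the wild-type line. That difference came mainly from Perp, a desmosomal protein, with 1946 to 2831 and 38.0 to 107. Epcam read 255 to 432 in the null line and 162 to 301 in the wild-type line, and Krt19 read 46.6 to 89.1 and 209 to 374. Cdh1, Krt8 and Krt18 had mean signals of 26.6, 57.1 and 16.9. Members of the endothelial and adipocyte lists also went in different directions. Eng read 536 to 667 in the null line and 121 to 224 in the wild-type line, and Tek read 43.4 to 91.3 and 55.0 to 488. The adipocyte sum was mostly Lpl, with 9929 to 13065 and 2302 to 10729. Pparg read 286 to 608 and 50.1 to 91.3, and Fabp4 read 94.8 to 264 and 277 to 391. The part of these differences in the proteasome values was not tested, and in bulk RNA a smaller share of cells expressing a gene cannot be told apart from less RNA per cell.

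Proteasome genes varied little across the 9 arrays. The SD of log2 signal over all arrays had a median of 0.134 for the 35 genes, against 0.270 for all 19090 tested probe sets and 0.228 for the 6799 probe sets with a mean signal over 1000. In all, 30 of the 35 genes, and 28 of the 31 subunits, lay below the median of all tested probe sets. The steadiest were the alpha subunit Psma4, with an SD of 0.059, the beta subunit Psmb3, with 0.064, and the alpha subunit Psma5, with 0.068. Psma4 read between 9451 and 10470 on every array, a ratio of 1.11 between the highest and the lowest. The 31 subunits had a median mean signal of 7183, against 584 for all tested probe sets, so they were measured in the upper part of the array's range. Those that varied most were Psma6 (SD 0.346), Psmc3ip (0.339), Psmd5 (0.288), Psmd13 (0.272) and Psmd8 (0.272). The ratio of highest to lowest array had a median of 1.34 and was over 2 for 1 of the 35 genes, Psmc3ip, at 2.22.

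**Figure D1:**
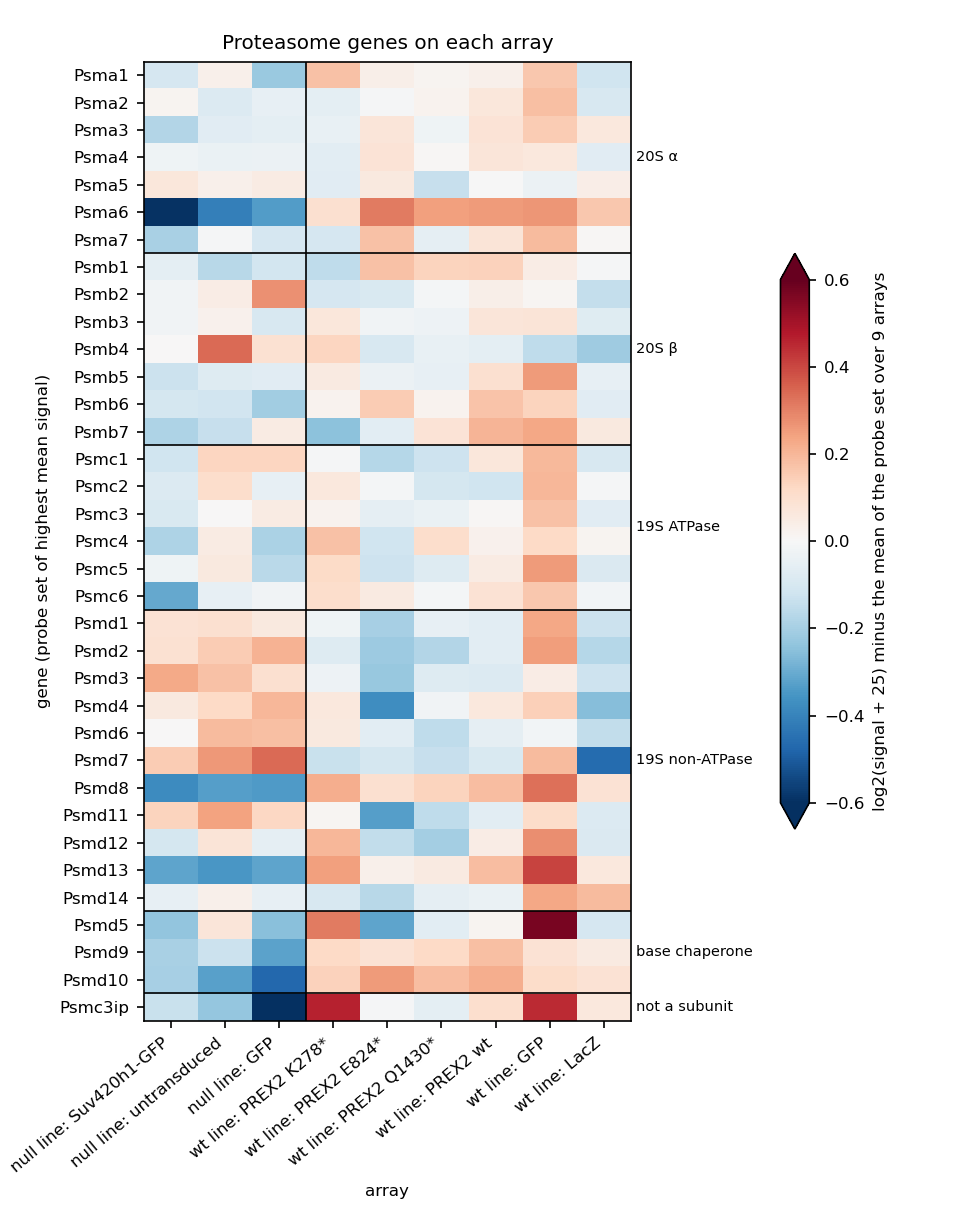
Log2 signal of the 35 tested proteasome genes (rows, grouped by role) on the 9 arrays (columns, null line left and wild-type line right), each as the difference from the gene's mean over arrays; colours saturate at 0.6. Psma6, Psmd8, Psmd13 and Psmd10 are lower on all 3 null-line arrays, and the wild-type GFP column is high over much of the set.

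The first comparison asked what the null line showed against the wild-type line with a control vector (2 arrays each). Of the 35 genes, 4 fell in the null line and 0 rose. The share was 11.4%, against 19.7% of all tested probe sets, of which 10.7% rose and 8.94% fell. They were Psma6 of the alpha ring, which fell by 33.3%, the lid subunits Psmd8, which fell by 31.3%, and Psmd13, which fell by 32.6%, and Psmd10 (gankyrin), which fell by 29.1%. Psmd10 is a chaperone that holds ATPases of the base during assembly and also binds cyclin-dependent kinase 4. The other 31 did not pass, with 8 of the 35 at an unadjusted p under 0.05 in limma (2 higher, 6 lower), against 34.2% of all probe sets. The groups did not overlap for 20 of the 35 genes (60.6% of all probe sets), and the median log2 difference was -0.11 (range -0.69 to 0.44), against -0.002 over all probe sets. The median size of the difference, whatever its sign, was 0.173 for the 35 genes and 0.321 for all probe sets.

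Psma6 read 11215 in untransduced and 11812 in GFP-expressing null cells, against 17891 and 16683 in wild-type cells with GFP and LacZ. Its mean was 11514 ± 423 in null cells and 17287 ± 855 in control-vector cells (SD, n = 2 each), a log2 difference of -0.58 (SE 0.104, adjusted p = 0.0092). Both null arrays lay far below both control arrays. Psmd8 read 2235 and 2219 in null cells, against 3539 and 2986 in control-vector cells, a log2 difference of -0.54 (SE 0.126, adjusted p = 0.0246). Psmd13 read 1484 and 1518 in null cells, against 2525 and 1984, a log2 difference of -0.57 (SE 0.155, adjusted p = 0.0410). For both lid subunits the null arrays were close together, and the control arrays were apart, with GFP the higher. Psmd10 read 1253 and 1133 in null cells, against 1703 and 1676 in control-vector cells, a log2 difference of -0.50 (SE 0.123, adjusted p = 0.0303). These calls rested on few arrays: without the untransduced or the GFP null array 0 of the 35 passed, and without the wild-type GFP array the passing genes were Psma6, which fell, and Psmd7, which rose. That last fit also gave a median of 0.03, with 20 genes above zero and 15 below.

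By role, the alpha ring had 1 gene above zero and 6 below (median -0.12), the beta ring 2 and 5 (median -0.16), the ATPase ring 1 and 5 (median -0.09) and the non-ATPase subunits 7 and 4 (median 0.14). All 3 base chaperones were below zero. Without the wild-type GFP array the alpha ring had 4 genes above zero and 3 below, the beta ring 3 and 4, the ATPase ring 4 and 2, the non-ATPase subunits 8 and 3 and the base chaperones 1 and 2. After quantile normalization the ATPase ring had 3 above and 3 below. The largest difference was that of Psmc3ip, with 505 in null and 831 in control-vector cells (log2 -0.69, SE 0.243, adjusted p = 0.087), which did not pass. Among subunits the highest values were those of the lid subunit Psmd7 (0.44, SE 0.198, adjusted p = 0.166) and the beta subunit Psmb4 (0.40, SE 0.122, adjusted p = 0.0598). A second Psmb4 probe set, with a mean signal of 12163 beside 12411 for the main one, was at 0.12 (adjusted p = 0.420). The catalytic subunits were -0.19 for Psmb6 (SE 0.114, adjusted p = 0.274), -0.19 for Psmb7 (SE 0.155, adjusted p = 0.423) and -0.17 for Psmb5 (SE 0.125, adjusted p = 0.369). Of the ubiquitin-handling subunits, Psmd14 was at -0.22 (SE 0.0942, adjusted p = 0.143), Psmd2 at 0.14 (SE 0.149, adjusted p = 0.554) and Psmd4 at 0.22 (SE 0.188, adjusted p = 0.459). Their 95% intervals were -0.44 to -0.002, -0.21 to 0.49 and -0.22 to 0.66.

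The second comparison set all 3 null-line arrays against all 6 wild-type-line arrays, so it shares arrays with the first and is not independent of it. Of the 35 genes, 7 fell and 3 rose in the null line. The share was 28.6%, against 43.4% of all tested probe sets, of which 22.1% rose and 21.3% fell. Among the 31 subunits alone, 4 fell and 3 rose (22.6%). In limma 15 of the 35 had an unadjusted p under 0.05, against 51.1% of all probe sets. The groups did not overlap for 12 of the 35 (40.5% of all probe sets), and the median log2 difference was -0.06 (range -0.67 to 0.37), against 0.004 over all probe sets. Genes that fell were Psma6, the catalytic subunit Psmb6, the lid subunits Psmd8 and Psmd13, the chaperones Psmd9 and Psmd10, and Psmc3ip. Those that rose were the lid subunits Psmd3, Psmd7 and Psmd11. The balance of directions depended on the scaling and on the wild-type GFP array. After quantile normalization 6 rose and 6 fell, with Psmb4, Psmd2 and Psmd6 added to those that rose and Psmb6 no longer passing, and 17 of the 35 genes lay above zero in place of 11. Without the wild-type GFP array 6 rose and 7 fell, with Psmd1, Psmd2 and Psmd6 added to those that rose.

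**Figure D2:**
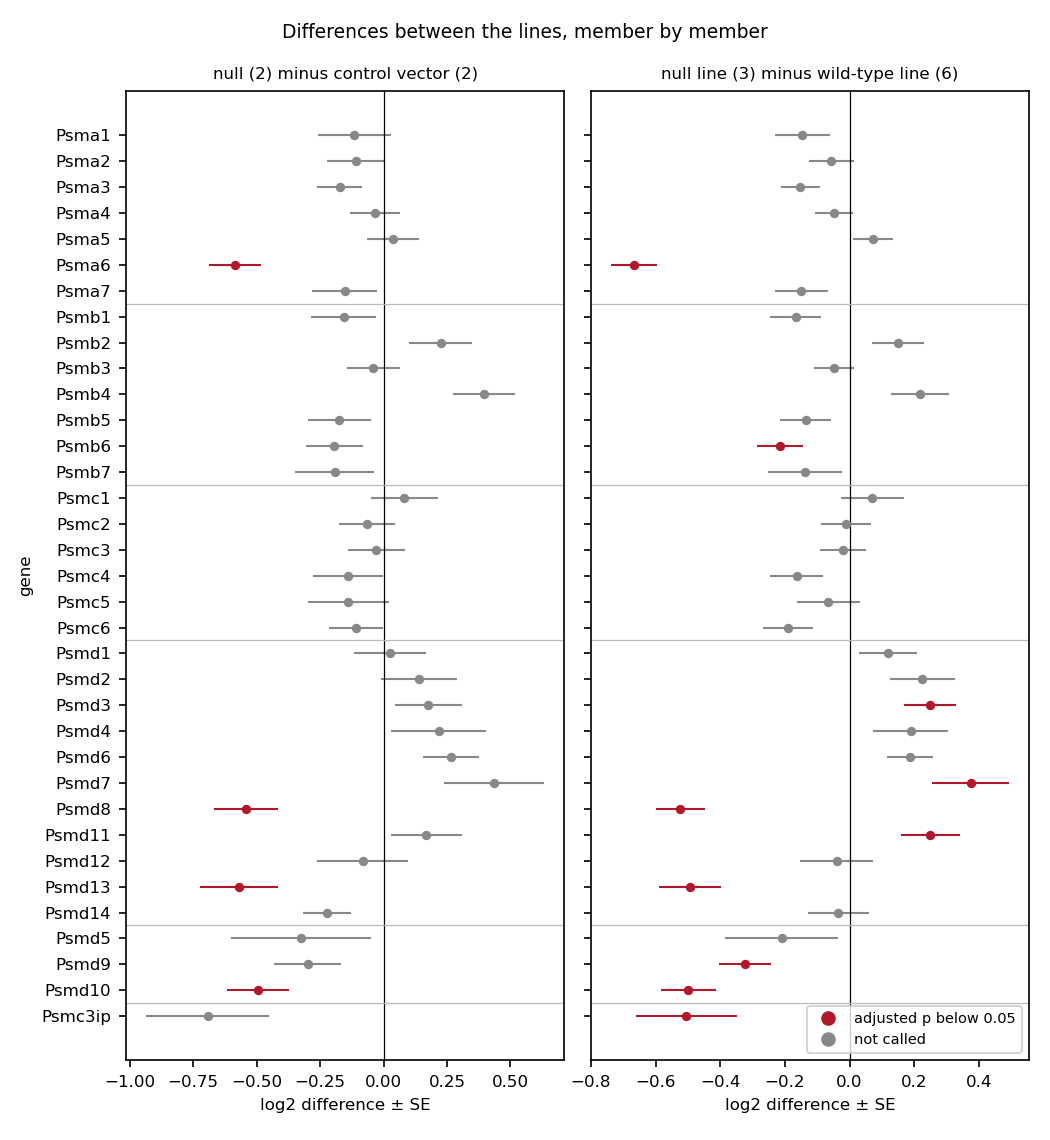
Log2 difference ± SE of each of the 35 genes, for null (2 arrays) minus control vector (2) on the left and for the null line (3) minus the wild-type line (6) on the right, with genes that passed in red. On the left the 4 red genes are all below zero, and on the right 7 are below and 3 above.

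In the alpha ring, Psma6 read 9878 to 11812 in the null line, against a lowest of 15921, a median of 17730.2 and a highest of 18486 in the wild-type line. Its mean was 10969 ± 990 in the null line (SD, n = 3) and 17407 ± 932 in the wild-type line (SD, n = 6), a log2 difference of -0.67 (SE 0.0716, adjusted p = 3.6e-05), so that it fell by 37.0%. Every null-line array lay below every wild-type-line array. The other 6 alpha genes lay between -0.15 (Psma3, Psma1 and Psma7) and 0.07 (Psma5) and did not pass.

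In the beta ring, Psmb6, the caspase-like subunit, read 6503 to 6980 in the null line, against a lowest of 7156, a median of 7932 and a highest of 8452 in the wild-type line. Its log2 difference was -0.21 (SE 0.071, adjusted p = 0.0311), with no overlap, and it was lost in 9 of 17 alternative settings. The chymotrypsin-like subunit Psmb5 did not overlap between lines either, at 5895 to 6148 in the null line and 6217 to 7695 in the wild-type line, and did not pass (log2 -0.14, SE 0.0788, adjusted p = 0.188, 95% interval -0.31 to 0.04). Psmb7, the trypsin-like subunit, read 1562 to 1839 in the null line and 1494 to 2094 in the wild-type line (log2 -0.14, SE 0.114, adjusted p = 0.359, 95% interval -0.39 to 0.12). Of the other 4, Psmb4 had the highest value, 0.22 (adjusted p = 0.0734), and Psmb1 the lowest, -0.17 (adjusted p = 0.109).

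In the ATPase ring 0 of 6 genes passed in limma, and 1, Psmc6, had an unadjusted p under 0.05. Psmc6 was the lowest of the ring, with 6576 in the null line and 7487 in the wild-type line (log2 -0.19, adjusted p = 0.0705). Psmc1 was the highest at 0.07. Psmc2 and Psmc3 lay at -0.01 and -0.02, with 95% intervals of -0.18 to 0.16 and -0.18 to 0.14.

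Among the 11 non-ATPase subunits 3 rose and 2 fell. Psmd8 read 2158 to 2235 in the null line, against a lowest of 2986, a median of 3142 and a highest of 3539 in the wild-type line (log2 -0.52, SE 0.0756, adjusted p = 0.00028). Psmd13 read 1484 to 1519 in the null line, against a lowest of 1939, a median of 2073 and a highest of 2525 in the wild-type line (log2 -0.49, SE 0.0957, adjusted p = 0.0018). Neither overlapped between lines. In the other direction, Psmd3 read 1948 to 2137 in the null line, against 1556 to 1883 in the wild-type line, without overlap (log2 0.25, SE 0.081, adjusted p = 0.0285). Psmd11 read 7676 to 8350, against 5610 to 7614 in the wild-type line (log2 0.25, SE 0.0914, adjusted p = 0.0467); its highest wild-type value was that of the GFP array. Psmd7, a structural partner of Psmd14, read 4419 to 5041 in the null line and 2880 to 4539 in the wild-type line (log2 0.37, SE 0.119, adjusted p = 0.0258), and its groups overlapped through the wild-type GFP array. Of the lid subunits, Psmd8 thus fell by 30.4% and Psmd13 fell by 29.0%, while others rose, by 18.8% (Psmd3), 18.9% (Psmd11) and 29.6% (Psmd7). The rises were less firm than the falls of Psmd8 and Psmd13, which passed in all 17 alternative settings: Psmd11 did not pass in 11 of them, Psmd3 in 7 and Psmd7 in 3. Of the ubiquitin-handling subunits, Psmd2 was at 0.23 (SE 0.0999, adjusted p = 0.0917), Psmd4 at 0.19 (SE 0.116, adjusted p = 0.213) and Psmd14 at -0.03 (SE 0.0937, adjusted p = 0.790, 95% interval -0.24 to 0.17).

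**Figure D3:**
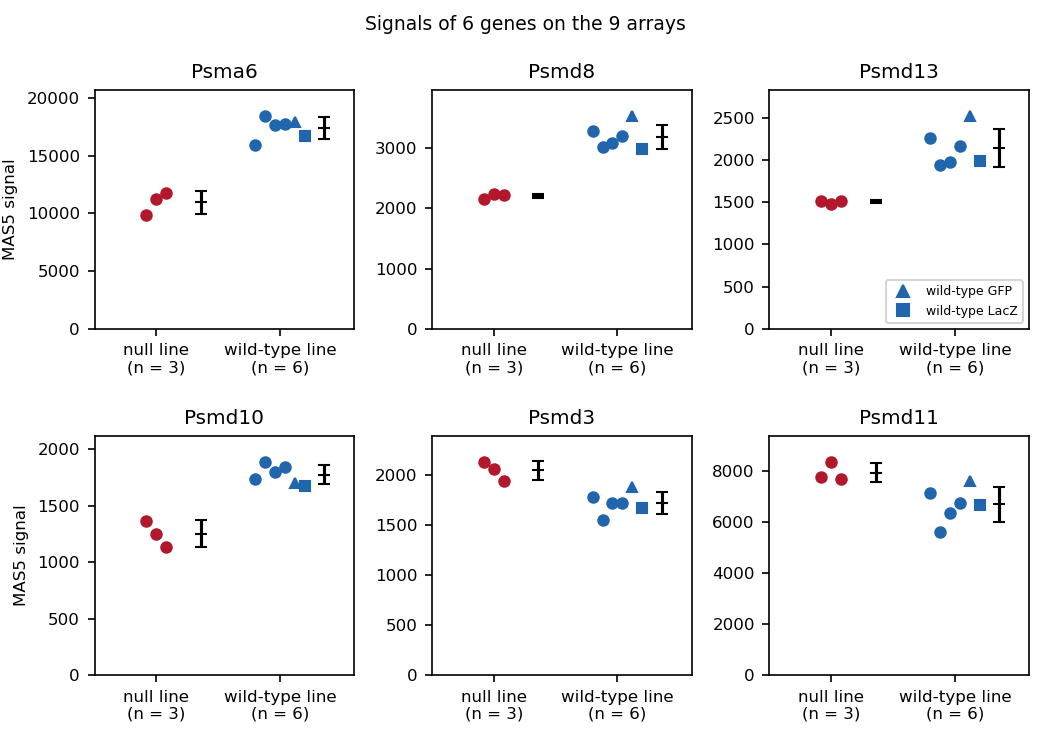
Deposited signal of Psma6, Psmd8, Psmd13, Psmd10, Psmd3 and Psmd11 per array, null line left of wild-type line in each panel, with bars for mean ± SD; the triangle is the wild-type GFP array and the square the wild-type LacZ array. In all 6 panels every null-line point lies on one side of every wild-type-line point, below for the first 4 genes and above for Psmd3 and Psmd11.

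Of the base chaperones, Psmd10 read 1133 to 1369 in the null line, against a lowest of 1676, a median of 1769.5 and a highest of 1890.1 in the wild-type line (log2 -0.50, SE 0.0842, adjusted p = 0.00079). Psmd9 read 660 to 758 in the null line, against a lowest of 865, a median of 895 and a highest of 945 (log2 -0.32, SE 0.0803, adjusted p = 0.0077). Psmd5 read 1910 to 2396 in the null line and 1825 to 3393 in the wild-type line and did not pass (log2 -0.21, adjusted p = 0.359). Psmc3ip read 430 to 622 in the null line and 658 to 953 in the wild-type line (log2 -0.51, SE 0.156, adjusted p = 0.0226), and it did not pass without the null GFP array (-0.35, adjusted p = 0.123). Psma6, Psmd8, Psmd13, Psmd9 and Psmd10 passed in all 17 alternative settings. A fit with 5 group means in place of 2 lines left 5 genes, all of which fell. Leaving out 1 array at a time left 6 (without either null array) to 14 (without the K278* array), and 13 without the wild-type GFP array. The share of all probe sets passing in each of these fits is not given here, so the counts do not single out these genes.

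Second probe sets gave a check on these values. In 17 of the genes 23 further probe sets were tested, and in the line comparison 19 had the sign of the main one and 20 lay within 0.5 of it. A second Psma6 probe set fell as well, with 7694 in the null line and 10042 in the wild-type line (log2 -0.38, adjusted p = 0.00104), while the dimmest tested one, with 441 and 354, was at 0.30 and did not pass (adjusted p = 0.141). The brightest Psma6 probe set carries an x in its name, by which the maker marks probes that may also match other transcripts. Averaged over its probe sets, Psma6 was at -0.24 in null against control-vector cells and did not pass (adjusted p = 0.168). The brightest Psmb4 probe set carries an x as well, and the second was at 0.10 between lines (adjusted p = 0.236). A second Psmd13 probe set fell, with 767 in the null line and 1066 in the wild-type line (log2 -0.46, adjusted p = 0.00463), and its dimmest tested one did not pass (-0.35, adjusted p = 0.208). For Psmd11 none of 3 further probe sets passed, at 0.20 (adjusted p = 0.102), 0.19 (adjusted p = 0.197) and -0.02 (adjusted p = 0.911), nor did the other Psmd7 probe set (0.37, adjusted p = 0.113). Psmd8, Psmd9 and Psmd10 each had 1 tested probe set. Further probe sets of Psmc4 (-0.28) and Psmc6 (-0.23) fell where the brighter ones did not pass, and a dim one of Psma3 rose (0.89).

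Psmd6, a lid subunit, showed the largest disagreement between probe sets among the 35 genes. Its brightest probe set over all arrays read 7507 to 8554 in the null line and 6747 to 7800 in the wild-type line (log2 0.19, adjusted p = 0.0567). Its second read 8907, 9617 and 10314 in the null line, against 667 with GFP, 598 with LacZ, 608 with full-length PREX2 and 1021, 667 and 606 with K278*, E824* and Q1430* in the wild-type line. That was a log2 difference of 3.77 (SE 0.156, adjusted p = 4.2e-08), and 3.93 (SE 0.235, adjusted p = 0.00011) in null against control-vector cells. The probe sets were thus 3.58 apart in the line comparison, where the median range over the 4453 genes with several tested probe sets was 0.25 and 5 genes (0.112%) had a range at least as large. Reconstituted, untransduced and GFP-expressing null cells were all high, and all 6 wild-type-line arrays were low. The name of the second probe set marks it as reading several transcripts of the same gene, and the stretch it covers is not stated in the sources used.

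**Figure D4:**
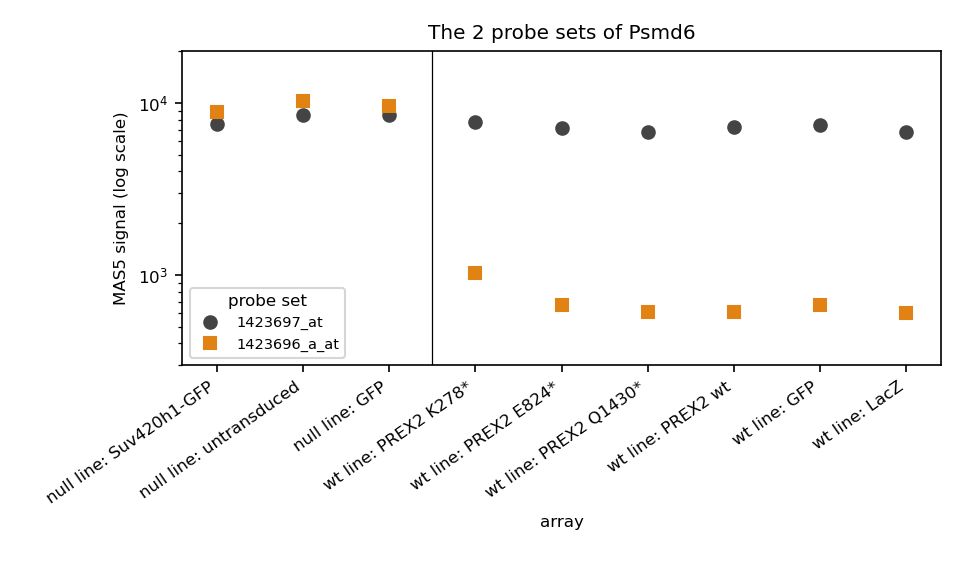
Deposited signal of the 2 tested Psmd6 probe sets on each of the 9 arrays (logarithmic vertical axis; null line left, wild-type line right). The probe set with the higher mean over the 9 arrays stays between 6747 and 8554 on all of them. The other lies at 8907 or above in the null line, where it is the higher of the 2, and at 1021 or below in the wild-type line.

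Of the 3 inducible catalytic subunits, which replace the constitutive ones when the immunoproteasome is formed under interferon, 2 rose in the null line. Between lines 22.1% of all probe sets rose. Psmb9, the counterpart of Psmb6, read 454, 563 and 564 in the null line, against a lowest of 54.9, a median of 133 and a highest of 229 in the wild-type line (log2 1.88, SE 0.310, adjusted p = 0.00069). Psmb10, the counterpart of Psmb7, read 1720 to 1880 in the null line and 957 to 1397 in the wild-type line (log2 0.55, SE 0.115, adjusted p = 0.0028). Both rose without overlap, and both passed in all 17 alternatives. Psmb8, the counterpart of Psmb5, read 451 to 580 in the null line, against a lowest of 18.1 (GFP), a median of 229 and a highest of 384 in the wild-type line, and did not pass, though the lines did not overlap (log2 1.38, SE 0.589, adjusted p = 0.0802). It passed in 2 of the 17 alternatives, with an offset of 100 (1.04, adjusted p = 0.0424) and without the wild-type GFP array (0.93, adjusted p = 0.0095). In null against control-vector cells the log2 differences were 2.14 for Psmb9 (adjusted p = 0.0198), 0.70 for Psmb10 (adjusted p = 0.0256) and 2.30 for Psmb8 (adjusted p = 0.0758). Those values depended on single arrays: Psmb9 and Psmb10 passed neither without the untransduced nor without the GFP null array, nor without the wild-type GFP array (adjusted p = 0.056 and 0.065 in that last fit). Psmb8 there ranged from 1.04 without the wild-type GFP array (adjusted p = 0.201) to 3.57 without LacZ, where it passed (adjusted p = 0.0041).

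**Figure D5:**
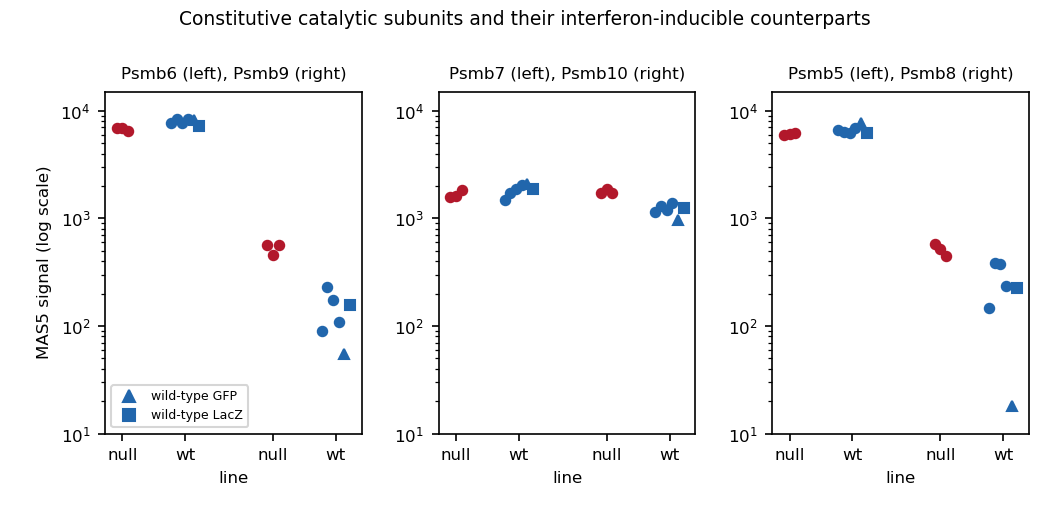
Deposited signal (logarithmic axis) of each constitutive catalytic subunit beside its inducible counterpart, Psmb6 with Psmb9, Psmb7 with Psmb10 and Psmb5 with Psmb8, null-line arrays left of wild-type-line arrays. Psmb9 and Psmb10 are higher on every null-line array, Psmb6 is lower on every null-line array, and heights are not comparable between genes.

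Adding Suv420h1-GFP back to the null line changed none of the 35 genes past the threshold. Reconstituted cells (1 array) were set against null cells (2 arrays), and in limma 0 of 35 passed, with 0 of all probe sets (0%) passing, 0 of 35 at an unadjusted p under 0.05 and 3.25% of all probe sets there. The log2 differences ran from -0.27 to 0.30 (median -0.06), against a median of 0.02 over all probe sets. Psma6 read 9878 in reconstituted cells and 11514 ± 423 in null cells, a log2 difference of -0.22 (SE 0.127). Psmd8 read 2158 in reconstituted cells and 2227 in null cells, and Psmd13 read 1519 and 1501. Psmd10 read 1369 in reconstituted cells and 1193 in null cells (log2 0.20, SE 0.150). All 4 stayed below the lowest wild-type-line value. The highest differences were Psmc3ip (0.30), Psmd10 and Psmd3 (0.09), and the lowest the ATPases Psmc6 (-0.27, SE 0.130) and Psmc1 (-0.25, SE 0.161) and Psma6. The catalytic subunits were at 0.06 (Psmb6), -0.14 (Psmb7) and -0.06 (Psmb5), and Psmd14, Psmd2 and Psmd4 at -0.04, -0.09 and -0.10.

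Constructs of PREX2 in the wild-type line also left 0 of the 35 genes past the threshold in limma. Truncated PREX2 (3 arrays) against control vector (2) gave a median log2 difference of -0.06 (range -0.32 to 0.18; all probe sets 0.005), where 0.00524% of all probe sets, 1 of 19090, passed. The 1 gene at an unadjusted p under 0.05, beside 2.82% of all probe sets, was the deubiquitinase Psmd14. It read 9061, 8634 and 9334 with K278*, E824* and Q1430*, against 11404 and 11074 with GFP and LacZ (log2 -0.32, SE 0.086, adjusted p = 0.844), without overlap. The next lowest were Psmd5 (-0.26) and Psmb7 (-0.22), and the highest Psmb4 (0.18), Psmd10 (0.10) and Psma1 (0.05).

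Full-length PREX2 (1 array) against control vector (2) gave a median of -0.004 (range -0.25 to 0.14; all probe sets 0.003), with 0% of all probe sets passing, 0 of the 35 genes at an unadjusted p under 0.05 and 1.41% of all probe sets there. Psmd14 was again the lowest, with 9432 with full-length PREX2 and 11239 with control vector (-0.25, SE 0.115), followed by Psmd5 (-0.22) and the ATPase Psmc2 (-0.21). The highest were Psmb6 (0.14), Psmb4 (0.12) and Psmd10 (0.12). This comparison and that of truncated PREX2 share the control arrays. Truncated against full-length PREX2 (3 arrays and 1) gave a median of -0.07 (range -0.28 to 0.10; all probe sets 0.002), with 0% passing, 0 of the 35 genes at an unadjusted p under 0.05 and 1.26% of all probe sets there. Its lowest values were those of Psmb7 (-0.28), Psmd4 (-0.17) and Psmc1 (-0.17), and its highest those of Psmc2 (0.10), Psmb4 (0.05) and Psma1 (0.04). The sign of both medians against control vector turned without the wild-type GFP array, to 0.06 for truncated and 0.12 for full-length PREX2.

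That array stood apart across the whole table: 6.82% of all probe sets differed from LacZ by more than 1 on the log2 scale, against 0.34% to 1.35% for the arrays with PREX2 constructs, and 0 of the 35 proteasome genes did so. The proteasome genes differed by less, mostly in one direction. With 1 array of each vector there is no test: 34 of the 35 genes, and 30 of the 31 subunits, were higher in wild-type cells with GFP than with LacZ, by a median of 0.19 on the log2 scale (range -0.07 to 0.67). Of all tested probe sets 47.4% were higher with GFP, and of those with a mean signal over 1000, 53.3%. After quantile normalization it was still 34 of 35, by a median of 0.16, beside 51.7% of all probe sets. The wild-type GFP array was the highest of all 9 for 17 of the 31 subunits (13 after quantile normalization) and the lowest for 0. It was highest for 5 of 6 ATPases (3 after quantile normalization), among them Psmc3 with 8323, where the 5 further arrays of that line gave 7030 to 7463. The largest difference was that of Psmd5, with 3393 with GFP and 2124 with LacZ. By its median deviation from the subunits' means, -0.07, the LacZ array was itself the lowest of all 9 arrays. It was the highest for 0 of the 31 subunits, as was Q1430*, and the lowest for 5, as was null GFP. The null Suv420h1-GFP and E824* arrays were each the lowest for 7. Full-length PREX2 was lower than GFP in the wild-type line for 27 of the 35 genes (median -0.11), while 51.2% of all probe sets were higher with full-length PREX2. GFP in the null line showed no such lean, since 15 of the 35 genes were higher with GFP than untransduced (median -0.01), beside 50% of all probe sets. Against the same LacZ array, 32 of 35 were higher with full-length PREX2 (median 0.12), 28 with K278*, 20 with E824* and 23 with Q1430*. Of all probe sets 48.2%, 48.7%, 49.4% and 49.5% were higher in these 4 pairs. Of those with a mean signal over 1000, 57.6% were higher with full-length PREX2. On the wild-type GFP array Nfe2l1, the regulator of proteasome genes, read 985, against 2375 with LacZ and 2089 to 3002 with the PREX2 constructs, and all 3 inducible subunits were lower than with LacZ. Fibroblast markers were higher with GFP than with LacZ for 3 of 17, the assembly chaperones for 5 of 5 and the COP9 signalosome for 7 of 9. Associated proteins were higher for 7 of 9, and ubiquitin, its activating enzymes and shuttle factors for 4 of 5. Activators and inhibitors were higher for 2 of 4, and genes of transcriptional control for 4 of 10. The part of these differences in the proteasome values was not tested.

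Other genes of the pathway were taken from fixed lists. Between lines 43.4% of all probe sets passed in limma (22.1% rose and 21.3% fell), and 51.1% had an unadjusted p under 0.05. In null against control-vector cells 19.7% passed and 34.2% had an unadjusted p under 0.05. Of 5 dedicated assembly chaperones of the core particle, 3 fell in the null line against the wild-type line and 0 rose: Psmg2 (2217 against 3048, log2 -0.46, adjusted p = 0.0185), Psmg3 (995 against 1385, -0.47, adjusted p = 0.00085) and Pomp, which matures the beta ring (5745 against 6914, -0.26, adjusted p = 0.0098). In null against control-vector cells Psmg3 passed (-0.49, adjusted p = 0.0414). Of 9 tested proteasome-associated proteins, Ecpas, a scaffold that binds the particle, rose (1218 against 838, 0.53, adjusted p = 0.00025) and Usp14, a deubiquitinase of the base, fell (3636 against 4640, -0.34, adjusted p = 0.0393). Of 4 tested activators and inhibitors 0 passed in limma, with 1 at an unadjusted p under 0.05 between lines and 0 in null against control-vector cells.

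Of 10 tested genes that control proteasome transcription, 2 rose and 3 fell in the line comparison, where 22.1% of all probe sets rose and 21.3% fell. Nfyc, a subunit of NF-Y, had 1140 in the null line and 2044 in the wild-type line (log2 -0.83, adjusted p = 1.7e-05). The NF-Y subunits Nfya (350 to 378 in the null line, 222 to 368 in the wild-type line) and Nfyb (514 to 805, 684 to 1063) did not pass. Nfe2l2, the oxidative-stress regulator related to Nfe2l1, fell, with 2109 in the null line and 3093 in the wild-type line (-0.55, adjusted p = 0.00020). Foxo4 fell as well (-0.63), while the segregase gene Vcp (0.41) and Midn (0.67), whose product carries substrates to the proteasome, rose. Nfyc, Nfe2l2 and Vcp also passed in null against control-vector cells, at -0.83, -0.53 and 0.40. Nfe2l1 itself had 1743 in the null line and 2202 in the wild-type line and did not pass (-0.26, adjusted p = 0.472). It read 1702 to 1786 in the null line. In the wild-type line it read 985 with GFP and 2089 to 3002 on the further arrays, so the lines overlapped through the GFP array alone. No fit without that array is given for Nfe2l1. Of 5 tested genes for ubiquitin, its activating enzymes and shuttle factors, 3 rose: Uba6 (0.55), Rad23b (0.61) and Ubqln2 (0.49). In the COP9 signalosome, a complex built on the plan of the lid, 5 of 9 fell (Cops6 -0.39, Cops2 -0.31, Cops3 -0.25, Cops4 -0.25 and Cops8 -0.25) and Cops7a rose (0.76). In null against control-vector cells 0 of these ubiquitin and COP9 genes passed in limma. Of them 2 and 4 had an unadjusted p under 0.05, beside 34.2% of all probe sets. In the reconstitution and PREX2 comparisons 0 genes of these pathway lists passed in limma, and 1, a gene of transcriptional control with truncated PREX2 against control vector, had an unadjusted p under 0.05.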

How the data were processed

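Per the labels' protocols, total RNA was purified on columns, labelled from its 3′ end by in vitro transcription and hybridised to Affymetrix mouse arrays. The deposited intensity values are MAS5 signals, per the submitters' processing notes; no MAS5 version is given in these sources. The table held 45101 probe sets. Without 64 controls, 34945 of 45037 had a single symbol in the annotation, 932 had several and 9160 none; only those with a single symbol were named.

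Signals were transformed as log2(signal + 25), which understates differences of dim probe sets. The 19090 probe sets with a mean of at least 100 were fitted in limma 3.58.1 (R 4.3.3) with an intensity trend, as 5 group means (4 residual degrees of freedom) or, between lines, as 2 line means (7). P-values are two-sided and were adjusted over all 19090 by the Benjamini-Hochberg method, with a threshold of 0.05. A group of 1 array was assumed to vary like the others. Genes named were the catalytic and ubiquitin-handling subunits, passing genes, and otherwise the 3 highest and 3 lowest; others singled out by spread, signal or probe set were chosen after their values were seen. The genes and lists were chosen with earlier results of these data known. Alternatives were offsets of 5 and 100, no minimum or 200, quantile normalization, no trend, the compared groups alone, averaged probe sets, and each array left out. The fits were tested on simulated data. Promoters came from RefSeq (GRCm38.p6).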

Additional observations from a re-analysis of the deposited data

Results flagged for a closer look

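Within the 6 wild-type-line arrays, 1 array lay far from the rest for 3 of the 35 genes (8.57%). There the gap to the nearest array, divided by the whole range, was above 0.625. For normally distributed values chance gives about 5% of genes. The share of all probe sets flagged in this way is not given, so the count does not single out these genes. The far array was the GFP array each time. It stood apart across the whole table, with 6.82% of all probe sets more than 1 from LacZ on the log2 scale. Psmc3, an ATPase, read 8323 there, against 7030 to 7463 on the other 5 arrays (ratio 0.665). Psmd1, the large scaffold of the base, read 6543, against 4848 to 5476 (ratio 0.630). Psmd2, the other large scaffold of the base, read 7509, against 5412 to 6022 (ratio 0.709).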

How the results depend on the processing

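No paired analysis was possible because the labels give the arrays no replicate numbers and no construct recurs across the groups compared, apart from GFP. In null against control-vector cells 4 genes passed; 1 passed with only the compared groups fitted, and 0 to 4 with each array left out in turn. The median log2 difference there ranged from -0.196 to 0.0258 over the arrays left out, and Psmd2 from -0.0724 (without LacZ) to 0.350 (without GFP). Between lines 10 passed; 5 passed with 5 group means, and 6 to 14 with each array left out. Psmd14 between lines was at -0.03 and turned to 0.0403 after quantile normalization, and lay between -0.0702 and 0.0098 with each array left out. The fits with arrays left out, with the compared groups alone and with 5 group means have fewer residual degrees of freedom. Beyond that the cause was not tested. Counts under the alternatives, here and above, stand without the share of all probe sets in the same fit. They do not single out these genes. In the reconstitution and PREX2 comparisons 0 genes passed under every alternative run.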
